A study of Homo sapiens with 4 samples.

Results

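Tail-to-tail convergent poly(A) clusters were PAS clusters (PACs) of opposite strands whose 3′ ends lay close together, so that 2 transcription units ran towards each other and ended a short way before, at or past each other's end. A PAC was taken as a member when it exceeded 5 TPM (the tags of a PAC scaled to the total tags of its library, as RPM) in at least 1 library and when a PAC of the opposite strand that met the same limit had its dominant cleavage site within 500 nt, each site being read from the library in which the PAC was highest. The rule found 661 members, 330 on the plus and 331 on the minus strand, among 14055 PACs past the limit (4.70%) and 17627 PACs in all. They formed 328 pairs in which each PAC was the other's nearest convergent partner, and 5 members, in YRDC, RABEP1, MLX, SHMT1 and CCNA2, had a partner that was nearer to another PAC. The lowest member reached 5.003 TPM in its best library and the highest PAC left out 4.983 TPM. Sites of the farthest pair lay 494 nt apart, and the nearest combination outside the rule was 502 nt apart.

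The study sequenced 3′ ends (PAS-seq, strand-specific) of 2 established esophageal squamous cell carcinoma lines, KYSE30 and TE-1, after 24 h with 20 mM l-lactate or with PBS as control, dose and time being those of the study's methods. There was 1 library per line and treatment, so that 2 libraries of KYSE30 and 2 of TE-1 were available and no difference with l-lactate within a line had a replicate check. The cell line label of both controls carried another number than their titles (KYSE32 and TE-3), and the titles were followed. Each library held between 7174991 and 10393799 tags and listed 14810 to 15048 PACs. Of the squamous and epithelial markers, EPCAM, PERP and DSP were listed in all 4 libraries, KRT6A in KYSE30 and KRT17 in TE-1 only, CDH1 in both KYSE30 libraries and at 1.30 TPM in TE-1 with l-lactate, and KRT5, KRT14, TP63 and SFN in none. Summed markers of fibroblasts, leukocytes and endothelium stayed between 0 and 16.6 TPM per list and library.

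A pre-mRNA is cleaved a short way downstream of a poly(A) signal, usually AAUAAA or AUUAAA, which is bound by CPSF, and before a U- or GU-rich element bound by CstF. UGUA motifs further upstream are bound by the NUDT21 subunit of CFIm, which influences which site is used. Where 2 genes converge, the 3′ ends can share sequence, so that the mRNAs are complementary over their tails, and RNA polymerase that runs past one poly(A) site enters the other gene in antisense.

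The sequences below are the 30 nt up to and including the dominant site of 8 pairs, read 5′ to 3′ on the strand of each gene from GRCh38 and written as DNA. The first 7 pairs were chosen because their sites lay within 11 nt of each other and both PACs were high, and the last because its transcripts overlapped over 98 nt. Capitals mark the poly(A) signal, and all 16 sites fell in annotated 3′ UTRs.
AIMP2 (chr7:6023805-6023834, plus strand): caagtgtcAATAAAagcatcatgtaattta
EIF2AK1 (chr7:6023835-6023864, minus strand): tttgctgaattttaAATAAAatgaaaacca
SRRD (chr22:26491903-26491932, plus strand): agctcctgAGTAAAgaagttacccttttga
TFIP11 (chr22:26491930-26491959, minus strand): taAATAAAcagtatttttagatcaccttca
KIF20A (chr5:138187630-138187659, plus strand): aaacagttatATTAAAgatattattgttca
CDC23 (chr5:138187657-138187686, minus strand): gctacatttggaattcAATAAAaaatgtga
PSME1 (chr14:24138931-24138960, plus strand): tcaggcacAATAAAtatagttataccactg
EMC9 (chr14:24138965-24138994, minus strand): gcccggttccAATAAAgagacttgggctga
EIF4A2 (chr3:186789866-186789895, plus strand): gaatgttaAATAAAttgtatattcacttta
RFC4 (chr3:186789900-186789929, minus strand): gttgtaataaaAATAAAatgaccaaaagca
SLIRP (chr14:77717566-77717595, plus strand): gcagcctattAATAAAgttaacataactga
SNW1 (chr14:77717606-77717635, minus strand): gcaactatttgtttcaAATAAAaacattta
NOP56 (chr20:2658359-2658388, plus strand): gtgccgtgttccccAATAAAaacaaattca
IDH3B (chr20:2658396-2658425, minus strand): tgtaaggtgttcAATAAAgaacatgaacca
ACAT2 (chr6:159779022-159779051, plus strand): ttataAATAAAaggaacatcagatcaatca
TCP1 (chr6:159778954-159778983, minus strand): attacacATTAAAgtaaagtacaagctgta

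In the closest pairs the cleavage sites nearly coincided while the 2 signals faced each other from either side. AIMP2, a scaffold protein of the tRNA synthetase complex, ended at position 6023834 and EIF2AK1, the heme-regulated eIF2α kinase, at the next base, 6023835. The signal of AIMP2 ended 16 nt and that of EIF2AK1 10 nt before its site. KIF20A, a mitotic kinesin, and CDC23, a subunit of the anaphase-promoting complex, shared 3 nt, as did SRRD and TFIP11, a spliceosome disassembly factor. The gap was 4 nt between PSME1, a proteasome activator, and EMC9, and likewise between the helicase EIF4A2 and the replication factor subunit RFC4. It was 7 nt between NOP56, a core protein of box C/D snoRNPs, and IDH3B of the citric acid cycle, and 10 nt between SLIRP, which binds mitochondrial mRNAs, and the splicing factor SNW1. In contrast, in ACAT2 and TCP1 each signal lay inside the transcript of the other gene.

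Across the 328 pairs, the transcripts, taken to end at their dominant sites, overlapped in 122 (37.2%, 95% Wilson interval 32.1 to 42.5) and were separated by a gap in 206 (62.8%, 57.5 to 67.9). Such intervals cover counting over pairs only. Members were 5 nt wide in the median between the positions of 10% and 90% of their signal, and up to 963 nt. Transcripts that end at other sites of a PAC could therefore overlap in a pair with a gap, and these were not counted. The overlap was 80 nt in the median and at most 493 nt, and the gap 178.5 nt in the median, from 0 to 493 nt. The offsets were unevenly spread. In 44 pairs the sites lay within 13 nt of each other, 26 with a gap or directly adjacent and 18 with an overlap, which made 18.6 and 13.8 pairs per 10 nt of offset. Next to this peak the gap side was nearly empty. Gaps with an offset of 14 to 24 nt were seen in 2 pairs and of 25 to 50 nt in 3 pairs, which made 1.82 and 1.15 pairs per 10 nt, whereas offsets of 51 to 100 nt held 32 gaps, or 6.40 per 10 nt. On the overlap side the same stretches held 5, 16 and 33 pairs. These stretches were chosen after the values were seen. Pairs within 24 nt (51), pairs with a longer overlap (99) and pairs with a longer gap (178) are treated below as the 3 classes.

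**Figure D1:**
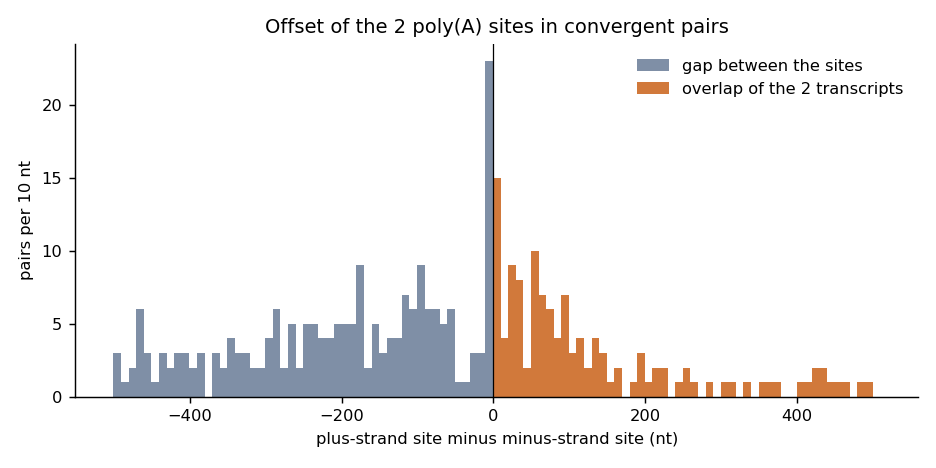
Offset of the 2 sites in the 328 pairs, as plus-strand minus minus-strand position in nt (x axis) against pairs per 10 nt bin (y axis), with gaps in grey-blue and overlaps in orange. The highest bars stand on either side of 0, where 44 pairs lay within 13 nt, and few pairs fell at gaps between 14 and 50 nt.

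Of the 328 pairs, 278 had both PACs inside a gene of their own strand, 262 joined protein-coding genes and 256 joined 3′ UTRs. The 278 pairs came from 277 gene pairs with 554 genes, since PDCD4 and BBIP1 contributed 2 pairs. By GENCODE the gene spans overlapped in 216 of them, and the sites in use overlapped in 100 of these 216 (46.3%, 39.8 to 53.0). In the 62 pairs without annotated overlap, sites inside both genes could not overlap. In 50 pairs at least 1 PAC lay outside annotated genes. Of the 52 intergenic members, 48 lay within 5 kb past an annotated gene end on their own strand, and 4 pairs had no such gene on 1 strand.

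Members were placed in 3′ UTRs in 582 of 661 cases (88.0%, 85.4 to 90.3), against 83.3% of the 13392 other PACs on chromosomes. Introns held 1.21% of members against 4.02% of the others, and noncoding exons 2.87% against 6.07%. A site inside a gene of the opposite strand was found for 59.8% of members and 19.4% of the others, a property close to the rule itself. In 459 of the 582 3′ UTR members (78.9%) the PAC was the only one of its 3′ UTR past the limit, compared with 59.8% of the others. Where a 3′ UTR had several, members were the most distal in 79 of 123 cases (64.2%, 55.4 to 72.1), against 44.1% of the others (42.7 to 45.6). Chromosomes 16 and 17 held the largest shares of members, 60 of 643 PACs (9.33%) and 85 of 899 (9.45%), and chromosomes 21, 2 and X the smallest, 1.47%, 1.73% and 1.83%.

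The canonical signal AAUAAA was present in the 50 nt upstream of the site in 417 members (63.1%, 59.3 to 66.7) and in 68.0% of the other PACs (67.2 to 68.7). Members carried AUUAAA without AAUAAA in 17.9% and a further variant in 14.4%, against 16.5% and 11.2% of the others. The 12 signals searched on the strand of the PAC were AAUAAA and AUUAAA, then AGUAAA and ACUAAA with another second base, UAUAAA and CAUAAA and also GAUAAA with another first base, AAUAUA and AAUACA and also AAUAGA with another base near the end, and finally AAGAAA and AAUGAA. At least 1 of them was found for 95.3% of members and 95.6% of the others, at a median of 16 nt before the site in both. Without regard to GC content, members differed from the others more in the share with AAUAAA than in the share with any signal. AAUAAA stood on both strands in 132 of the 328 pairs (40.2%), and in 23 of the 51 pairs within 24 nt.

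UGUA was found in the 100 nt upstream of 49.3% of members (45.5 to 53.1) and of 58.1% of the others (57.3 to 58.9). By class the share was 48.0% within 24 nt, 56.1% in longer overlaps and 46.1% in longer gaps. GC content of the same 100 nt moved with it, with a median of 38% in members and 33% in the others, and of 38.5%, 33% and 42% in the 3 classes. Within bands of GC chosen after the values were seen, UGUA was found in 72.3% of members and 71.4% of the others below 30% GC, in 53.0% and 62.2% at 30 to 39%, in 40.8% and 44.1% at 40 to 49%, and in 30.5% and 27.8% from 50%. The member interval excluded the share of the others in the band of 30 to 39% (46.4 to 59.5) and in no other band. In the same bands AAUAAA was found in 69.3% of members and 70.5% of the others below 30% GC. The shares were 61.8% and 67.9% at 30 to 39%, 58.1% and 65.3% at 40 to 49%, and 65.6% and 65.5% from 50%. For AAUAAA the member interval excluded the share of the others only at 40 to 49% (50.8 to 65.1). An A-rich stretch just downstream of the site, the pattern that internal priming leaves, was present in 1.66% of members and 1.54% of the others.

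**Figure D2:**
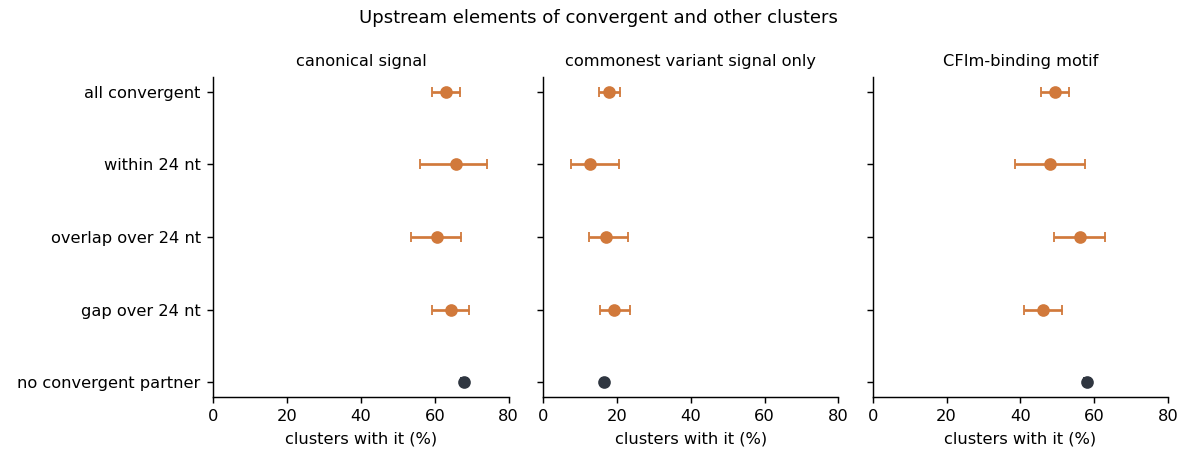
Share of PACs (x axis, percent, with 95% Wilson intervals) with the canonical AAUAAA signal, with AUUAAA but no AAUAAA, and with the UGUA motif bound by CFIm, for all members, the 3 classes of pairs (orange) and PACs without a convergent partner (black). The motif was seen in 49.3% of members and 58.1% of the others, and AAUAAA in 63.1% and 68.0%.

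The position of the signals relative to the partner followed from the offset. In pairs within 24 nt with a signal on both strands, the 2 signals were 31 nt apart in the median, and 41 of 46 such pairs had neither signal inside the partner's transcript. All 89 longer overlaps with 2 signals had each signal inside the partner's transcript, and none of the 163 longer gaps did. A signal was lacking on 1 strand in 5 pairs within 24 nt, among them C1orf56/CDC42SE1, SLC16A3/CSNK1D, CREB3/GBA2 and RABL6 with a partner outside genes. In SLC16A3/CSNK1D and the pair of RABL6, where the plus-strand site fell in an intron and the minus-strand PAC 2 nt away had no signal, the levels were close, whereas C1orf56/CDC42SE1, with the same features, differed by line. The PAC of C1orf56 was listed in TE-1 alone, at 3.42 and 5.10 TPM with l-lactate and control. That of CDC42SE1, which lay outside annotated genes past the end of CDC42SE1, had 8.78 and 7.54 TPM in KYSE30. It had 1.77 TPM in TE-1 with l-lactate, the TE-1 control not listing it. RABL6 had 88.0 TPM and its unnamed partner 76.4 TPM in the mean of the 4 libraries, a ratio of 1.15. SLC16A3, the monocarboxylate transporter MCT4, had 20.9 TPM and CSNK1D 24.1 TPM, a ratio of 1.16, and the site of CSNK1D was 1 of the 11 members with an A-rich stretch.

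The mean level over the 4 libraries was 22.4 TPM in the median of members and 15.5 TPM in that of other PACs, and members together they held 6.56% to 7.19% of the listed TPM per library. Of the 661 members, 587 (88.8%) were listed in all 4 libraries against 81.3% of the others. The libraries of KYSE30 alone listed 29 members and those of TE-1 alone 27. No share over all PACs stands beside these 2 counts, so that they show no trait of members. The levels of partners varied widely. The higher exceeded the lower 3.39-fold in the median, over 10-fold in 82 pairs, and by less than 2-fold in 111 (33.8%), with medians of 3.80, 3.74 and 3.10 within 24 nt, in longer overlaps and in longer gaps. Across the 328 pairs, which share the 4 libraries, Spearman's correlation of the partners' levels was 0.03 and Pearson's r of their log2 values 0.02.

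Abundant housekeeping genes made the most unequal pairs. Members over 1000 TPM in the mean were 7 ribosomal protein genes (RPL7A, RPS27A, RPS2, RPS21, RPS25, RPL23A and RPL36), the chaperone HSP90AB1, PRDX1 and the actin-binding PFN1, and their values were seen before they were chosen. RPS27A, which encodes a ubiquitin fusion, had 3670 and 3518 TPM in KYSE30 with l-lactate and control and 3647 and 3994 TPM in TE-1. Its partner on the minus strand, which overlapped it by 24 nt and lay outside annotated genes, had 9.06, 7.81, 10.4 and 7.41 TPM in the same order, a ratio of 428 in the mean. PRDX1, a peroxiredoxin, had 2289, 2095, 2093 and 2079 TPM, and MMACHC, an enzyme of cobalamin metabolism whose site lay 2 nt away, 7.81, 8.48, 13.9 and 11.5 TPM. Between RPL7A and SURF1, a cytochrome oxidase assembly factor, the gap was 383 nt and the ratio 71.4. No contribution of the abundant partner to the low one was tested.

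Among pairs with both PACs inside a gene of their own strand, the 10 with the highest lower partner had means of 82.2 TPM or more on both strands. ADRM1, a ubiquitin receptor of the proteasome, had 179 and 162 TPM in KYSE30 with l-lactate and control and 273 and 249 TPM in TE-1, and LAMA5, a laminin chain, 295, 327, 281 and 267 TPM. ACTL6A, a subunit of chromatin remodelling complexes, had 251, 225, 159 and 150.5 TPM in that order, and MRPL47 of the mitochondrial ribosome 245, 234, 188 and 179 TPM. The histone deacetylase HDAC1 stood at 414, 427, 226 and 236 TPM beside MARCKSL1 at 197, 176, 179 and 221 TPM. SLIRP reached 720.4, 628, 918 and 962 TPM against 116, 128, 154 and 142 TPM of SNW1, and TCP1, a chaperonin subunit, 498, 431, 484 and 485 TPM against 95.2, 96.3, 112 and 100.8 TPM of ACAT2, a thiolase. For SURF2 and the cargo receptor SURF4 the order reversed between libraries. SURF2 had 56.6, 61.8, 127 and 155 TPM (log2 TE-1 minus KYSE30 1.24 ± 0.09 SE, limma adjusted p = 4.8e-05), and SURF4 186, 172, 158 and 119 TPM (-0.38 ± 0.09, limma adjusted p = 0.01), so that SURF4 was the higher in 3 libraries and SURF2 in the TE-1 control. The order also differed by line in NELFCD, a subunit of the negative elongation factor, and CTSZ, a lysosomal cathepsin. NELFCD had 88.8, 84.7, 157 and 152 TPM and CTSZ 12.7, 13.6, 236 and 269 TPM (4.16 ± 0.09, limma adjusted p = 1.2e-06), which placed CTSZ below NELFCD in KYSE30 and above it in TE-1.

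**Figure D3:**
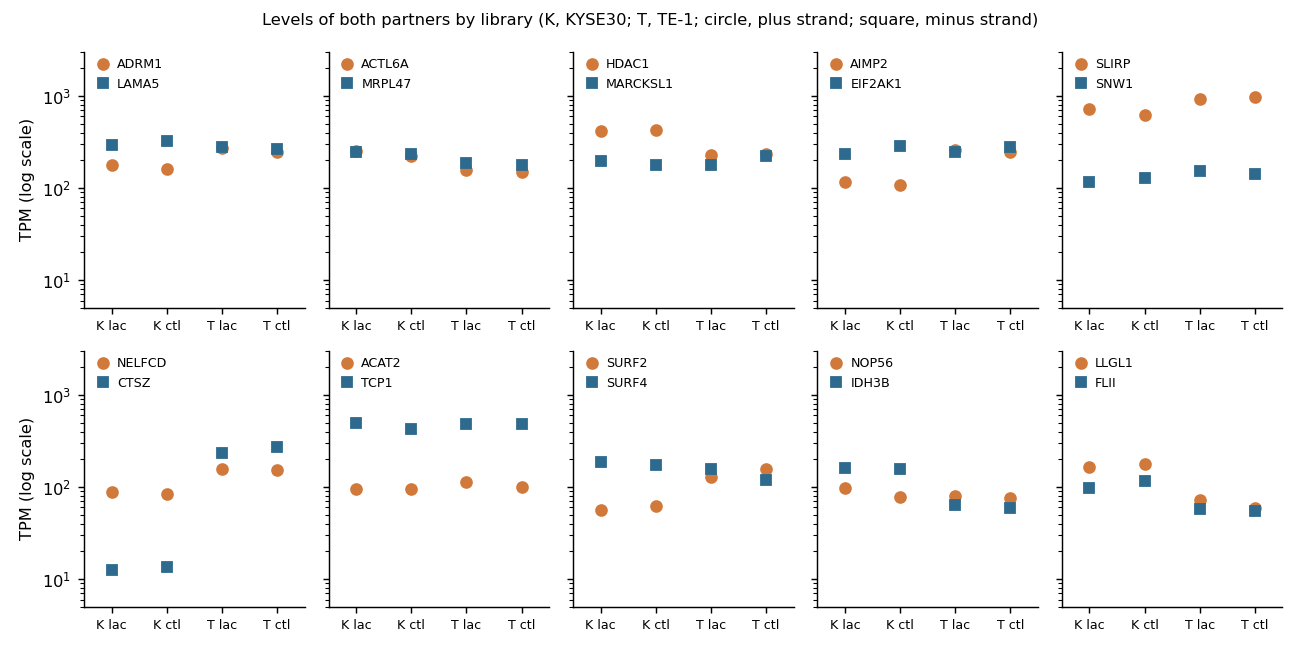
TPM (log axis) of both partners, by library, in the 10 pairs with the highest lower partner among pairs with both PACs inside a gene of their own strand, with KYSE30 (K) and TE-1 (T) after l-lactate (lac) or PBS (ctl). Circles are plus-strand and squares minus-strand genes, each point being 1 library, and CTSZ stands at 12.7 and 13.6 TPM in KYSE30 and at 236 and 269 TPM in TE-1.

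Among pairs with over 20 TPM on both strands in all libraries, long overlaps ran between WDR6 and DALRD3, both linked to tRNA modification (461 nt), MRPS7 and MIF4GD (133 nt), PPP2R5D and MEA1 (110 nt), and ACAT2 and TCP1 (98 nt). WDR6 had 99.8, 110.3, 129 and 128 TPM and DALRD3 29.8, 26.5, 57.7 and 58.8 TPM. PPP2R5D, a PP2A regulatory subunit, stood at 22.7 to 26.2 TPM over the 4 libraries, under MEA1 at 155 to 182 TPM, and neither passed the test between the lines. DALRD3 was called higher in TE-1 (1.02 ± 0.11, limma adjusted p = 0.00023).

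Gene groups fixed by symbol were represented to different extents among the 661 members, whose share of all PACs was 4.70%. Cytosolic ribosomal proteins gave 7 members of 111 PACs (6.31%), mitochondrial ribosomal proteins 4 of 94, namely MRPL20, MRPL47, MRPL49 and MRPS7, tRNA synthetases 3 of 38 (HARS1, MARS1 and YARS1), and solute carriers 9 of 216. The proteasome list gave 2 of 60 (PSMC5 and PSME1), the respiratory chain 3 of 122 (ATP5MK, NDUFA2 and NDUFA3) and histones 1 of 18 (H2AX). Zinc finger genes, with 4 members of 329 PACs (1.22%, 0.474 to 3.08), and long noncoding genes, with 16 of 687 (2.33%, 1.44 to 3.75), had intervals below the overall share. None of the 33 PACs of cleavage and polyadenylation factors was a member, nor was any PAC of FDX1, PAWR, BTF3L4, FAM98B, NUDT21, CPSF6, LDHA, AARS1 or HDAC2. These groups were counted and not tested.

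With l-lactate few members moved. In KYSE30, 32 of 661 members (4.84%, 3.45 to 6.75) differed past 1.5-fold on log2(TPM + 1), 9 higher and 23 lower, where the background over all 14055 PACs was 7.42% (3.74% higher and 3.68% lower). In TE-1 the count was 23 (3.48%, 2.33 to 5.17), 14 higher and 9 lower, against 7.83% (4.57% higher and 3.26% lower). After centring on the median of all PACs the split in TE-1 was 10 higher and 12 lower. The median log2 ratio of members was 0.00 in both lines. In the limma fit over both lines no member passed an adjusted p of 0.05 for the l-lactate term, nor did any PAC (background 0%). At an unadjusted p of 0.05 the count was 52 members (7.87%) against 10.1% of all PACs. The smallest adjusted p of a member was 0.412, with 1 residual degree of freedom per PAC before moderation.

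Of these members, 18 in KYSE30 and 9 in TE-1 were among the 587 listed in all 4 libraries. The background over all PACs listed in all 4 libraries was 4.9% in KYSE30 and 5.29% in TE-1. RAD52 and SH3GLB2 were the only members that passed 1.5-fold the same way in both lines, 0.303% of members against a background of 1.07%. The PAC of RAD52 lay outside annotated genes, past the annotated end of RAD52, so that its values are not the level of the whole gene. It was not listed in KYSE30 with l-lactate, had 4.31 TPM in its control, and 3.19 and 5.29 TPM in TE-1 with l-lactate and control. SH3GLB2 had 2.09 and 5.52 TPM in KYSE30 and 1.73 TPM in the TE-1 control, and was not listed in TE-1 with l-lactate. Both stood below 6 TPM in every library that listed them. Among members listed in all 4 libraries, ISYNA1, the inositol phosphate synthase, had 3.35 TPM with l-lactate and 9.97 TPM in control in KYSE30, a log2 ratio of -1.34, and stood at 2.36 TPM with l-lactate and 1.44 TPM in control in TE-1. Its partner SSBP4 had 4.74 and 7.81 TPM in KYSE30 (-0.62) and 14.9 and 12.5 TPM in TE-1 (0.23). In TE-1 the noncoding gene ENSG00000255031 had 30.8 and 15.6 TPM (0.94) while its partner CHKA, choline kinase, had 6.26 and 10.8 TPM (-0.70). Both partners passed 1.5-fold in 2 pairs of each line, and across the 328 pairs Spearman's correlation of the partners' log2 ratios was 0.03 in KYSE30 and -0.02 in TE-1.

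SRSF2, SNRPG and RBBP7 passed the l-lactate test under 2 other settings of the limma fit and AP1G2 under 1 of them, none of the 4 at the setting used here. These were 4 of 661 members with a pseudocount of 5 and 3 of 587 among PACs listed in all 4 libraries. Of all PACs fitted, 2.1% and 2.12% passed, so that members passed less often than PACs in general. SRSF2, a splicing factor, had 225 and 193 TPM in KYSE30 with l-lactate and control and 315 and 222 TPM in TE-1, log2 ratios of 0.22 (95% exact counting interval 0.11 to 0.32) and 0.51 (0.43 to 0.59). Its l-lactate term was 0.36 ± 0.09 (SE) with a limma adjusted p of 0.427. SNRPG, a core snRNP protein, had 100.5 and 76.5 TPM in KYSE30 and 77.0 and 60.8 TPM in TE-1, log2 ratios of 0.39 (0.23 to 0.55) and 0.34 (0.18 to 0.50). RBBP7, a histone chaperone, had 11.6 and 18.3 TPM in KYSE30 and 41.8 and 54.2 TPM in TE-1, log2 ratios of -0.66 (-1.07 to -0.26) and -0.37 (-0.57 to -0.18). These log2 ratios are of TPM without a pseudocount, and the intervals cover counting error only.

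**Figure D4:**
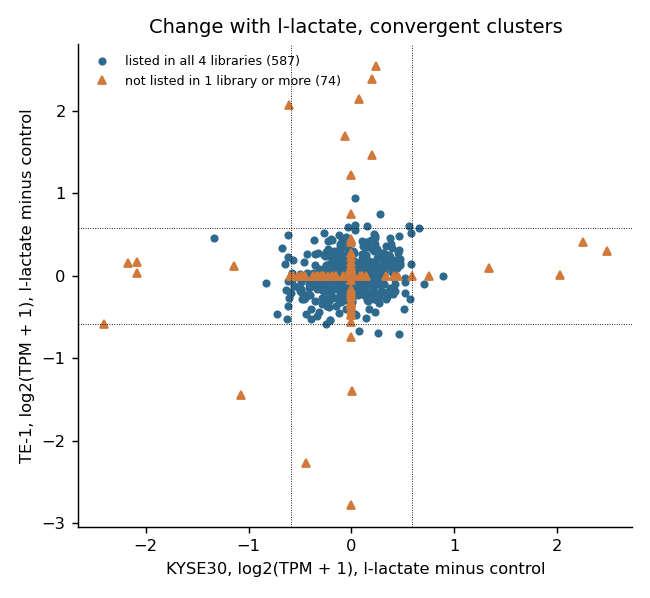
Log2 difference in (TPM + 1) between l-lactate and control in KYSE30 (x axis) and TE-1 (y axis) for the 661 members, with dotted lines at 1.5-fold. Circles are the 587 members listed in all 4 libraries, of which 18 lie past the lines for KYSE30 and 9 past those for TE-1, and triangles are members not listed in at least 1 library. Of all PACs listed in all 4 libraries, 4.9% and 5.29% passed these lines.

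The limma term for line, at an adjusted p of 0.05 and at least 2-fold, called 230 members (34.8%, 31.3 to 38.5), 125 higher and 105 lower in TE-1, against 39.6% of all PACs (19.2% higher and 20.4% lower). By class the share was 36.3% within 24 nt, 40.9% in longer overlaps and 30.9% in longer gaps. Each line had 1 library per treatment, and no label names separate cultures. The p-values of the line term weigh a difference between the lines against how far it varied between the 2 treatments, moderated over all PACs. They do not measure the spread between cultures of a line. Some members were seen in 1 line alone. CAPS, a calcium-binding protein, had 296 and 278 TPM in the KYSE30 libraries and SOX15, an HMG-box transcription factor, 104 and 115 TPM, and neither was listed in TE-1. Conversely, LINC03061 had 133 and 149 TPM and MCAM, the adhesion molecule CD146, 50.8 and 52.5 TPM in TE-1, and neither was listed in KYSE30. These 4 were chosen after their values were seen. The partner of SOX15, MPDU1, ended 2 nt away and was listed throughout at 39.3, 41.2, 33.2 and 32.7 TPM.

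Both partners were called between the lines in 44 pairs, 30 in the same and 14 in opposite directions. In 140 pairs 1 partner was called and in 144 neither. Of single PACs, 34.8% of members and 39.6% of all PACs were called. The pair counts were not compared with what these shares alone would give. Across the 328 pairs Spearman's correlation of the partners' line differences was 0.20 (r = 0.14), and within the 3 classes 0.18, 0.25 and 0.21 for pairs within 24 nt, longer overlaps and longer gaps. In opposite directions, DNAJC16 had 38.5, 45.1, 12.9 and 12.03 TPM (-1.67 ± 0.13, limma adjusted p = 8.7e-05), and AGMAT, whose transcript overlapped it by 31 nt, 3.35, 2.16, 35.4 and 31.8 TPM (3.22 ± 0.17, limma adjusted p = 1.8e-05). ITGB4, the integrin of hemidesmosomes, stood at 315 and 301.3 TPM in KYSE30 and 44.6 and 40.02 TPM in TE-1 (-2.84 ± 0.08), and its partner GALK1, galactokinase, at 3.07, 5.12, 10.4 and 12.1 TPM (1.29 ± 0.20). IAH1 had 14.5, 19.0, 97.5 and 107 TPM (2.55 ± 0.11) and the sheddase ADAM17 21.2, 18.7, 7.79 and 8.18 TPM (-1.22 ± 0.15). ERVK3-1 had 39.4, 32.5, 92.0 and 90.2 TPM (1.32 ± 0.10) and its partner ENSG00000283103 27.0, 32.6, 12.9 and 15.1 TPM (-1.04 ± 0.12). SSBP4 and ISYNA1, at 1.04 ± 0.24 and -1.27 ± 0.43, were the weakest of the 5, with ISYNA1 under 10 TPM in every library.

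In the same direction, TXLNG had 12.96, 15.1, 81.8 and 79.1 TPM (2.44 ± 0.12) and RBBP7, across a gap of 134 nt, was also higher in TE-1 (1.64 ± 0.12). RHOF, a small GTPase of filopodia, had 69.0, 57.0, 215 and 230 TPM (1.81 ± 0.11), and TMEM120B, which overlapped it by 19 nt, 2.09, 1.08, 5.90 and 7.41 TPM (1.59 ± 0.29). HEXD, a hexosaminidase, had 30.1, 30.7, 7.79 and 8.27 TPM (-1.80 ± 0.14), and CYBC1, a chaperone of the NADPH oxidase, 3 nt away, 103, 106, 32.6 and 35.1 TPM (-1.60 ± 0.09). SMCR8 and SHMT1, the cytosolic serine hydroxymethyltransferase, were both lower in TE-1, at 66.3, 68.0, 26.1 and 23.5 TPM (-1.40 ± 0.11) and 62.7, 72.9, 20.5 and 18.6 TPM (-1.74 ± 0.12). RAI1 and SREBF1, a regulator of lipid synthesis, had 11.99, 13.9, 4.25 and 4.14 TPM (-1.42 ± 0.18) and 10.2, 7.68, 2.72 and 2.41 TPM (-1.47 ± 0.21). In each of these pairs the libraries of the lines did not overlap on either strand, a property close to their choice by the line call.

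SMCR8/SHMT1, RAI1/SREBF1 and LLGL1/FLII lie close together on chromosome 17. LLGL1, a cell polarity protein, had 164, 177, 72.7 and 58.5 TPM (-1.37 ± 0.11), and FLII, of the gelsolin family, 98.5, 117, 57.7 and 55.3 TPM (-0.91 ± 0.10). Between 16 and 20 Mb of this chromosome, a stretch chosen after the values were seen, 6 of 7 members were called lower in TE-1 and none higher. Of the 57 other PACs of the stretch 37 were called lower (64.9%, 51.9 to 76.0) and 6 higher, against 20.4% and 19.2% of all PACs, with a median log2 difference of -1.45. The direction of these pairs was also that of most PACs of the stretch without a convergent partner, and its cause was not tested.

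**Figure D5:**
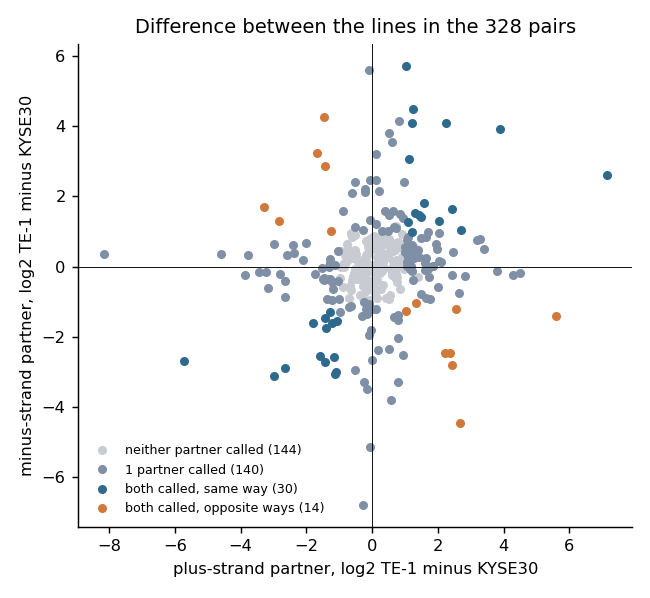
Log2 difference between TE-1 and KYSE30 of the plus-strand partner (x axis) and the minus-strand partner (y axis) in each of the 328 pairs, coloured by how many partners were called. Of the 44 pairs with both called, 30 lie in the quadrants of equal sign (blue) and 14 in those of opposite sign (orange).

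Cleavage sites hardly moved. Among members above 5 TPM with and without l-lactate, the dominant site shifted by over 24 nt in 10 of 554 in KYSE30 (1.81%, 5 downstream and 5 upstream) and in 9 of 558 in TE-1 (1.61%, 7 downstream and 2 upstream), where the background over all PACs was 1.43% (0.802% downstream and 0.627% upstream) and 1.24% (0.734% and 0.511%). Both lines shared 3 of these members. TMEM69, whose dominant site held 24.5% to 32.0% of its tags, moved 308 nt downstream in both lines, towards the site of IPP. The site that placed the PAC of TMEM69 lay outside annotated genes, past the end of TMEM69, and that of IPP in an intron. SNN moved 55 nt downstream in both lines, which lengthened its overlap with TXNDC11. ZNHIT3, an snoRNP assembly factor, moved 64 nt upstream in KYSE30 and 64 nt downstream in TE-1, and its dominant site held between 25.9% and 30.3% of its tags. In all 4 libraries its dominant site was 1 of 2 positions 64 nt apart, and with MYO19, a mitochondrial myosin, the overlap was 66 nt with the one and 2 nt with the other. Similarly, ESRP2, an epithelial splicing regulator, moved 286 nt downstream in TE-1, where its dominant site held 33.3% and 33.9% of the tags with l-lactate and control.

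The arrangement of the pairs was accordingly nearly constant. Of the pairs with both PACs above 5 TPM, the offset was equal with l-lactate and control in 210 of 233 in KYSE30 (90.1%) and in 217 of 236 in TE-1 (91.9%), and equal between the lines in 173 of 199 control pairs (86.9%) and 177 of 204 l-lactate pairs (86.8%). All 4 libraries agreed in 204 of the 261 pairs listed throughout (78.2%, 72.8 to 82.7). By dominant site, the transcripts overlapped in some libraries and not in others in 7 pairs, and in 1 of these the offset varied by 2 nt only. IAH1 and ADAM17 differed by line, with a gap of 26 nt in both KYSE30 libraries and an overlap of 130 nt in both TE-1 libraries. NFATC3 and ESRP2 overlapped by 130 nt in 3 libraries and were 156 nt apart in the TE-1 control. TXLNG and RBBP7 overlapped by 174 nt in the KYSE30 control and had a gap of 134 nt in the other libraries, and PDCD4 and BBIP1, CRYBG3 and RIOX2, and CREB3 and GBA2 also differed in 1 library each.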

How the data were processed

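PAS-seq libraries of KYSE30 and TE-1 cells, 1 per line and treatment, were analysed from 4 tables of consensus clusters. Per the methods of the study, the authors trimmed the reads, aligned them with HISAT2 to GRCh38 (GRCh38.p14 per the labels), called cleavage sites with CAGEr, dropped weak sites and joined sites of a strand into clusters, for clusters past 5 TPM over up to 500 nt. A cluster can therefore hold several sites, and its dominant site can move within it. The deposited values are TPM as the authors named them, that is RPM: tag numbers relative to library depth, not corrected for length. A cluster that a library did not list was taken as 0. Libraries held 7174991 to 10393799 tags.

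Members and lists were chosen with earlier results of these data known. Sites were placed with GENCODE 44 and sequence was read from GRCh38 (pysam 0.24.0). Log2(TPM + 1) of all 14055 clusters past 5 TPM was fitted with limma 3.58.1 in R 4.3.3 (trend, terms for line and treatment), and p-values were adjusted by Benjamini-Hochberg over all of them. A line difference was called at an adjusted p of 0.05 and at least 2-fold. Differences with l-lactate within a line had no test and were counted past 1.5-fold. The fit was run on simulated data with larger l-lactate differences than that of SRSF2, and differences of its size were not simulated. Shares carry 95% Wilson intervals, ratios of tags exact ones.

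Among pairs with both clusters inside a gene of their own strand, and with each gene used once, the text names the 10 with the highest lower partner, the 5 with the longest overlap and the 5 with the smallest distance among pairs above 20 TPM in all 4 libraries, 5 pairs called in opposite and 5 in the same direction between the lines, and pairs above 20 TPM whose offset moved with l-lactate by over 24 nt. Other names were chosen after their values were seen. Some of the genes that these choices gave are not reported here. Settings varied were the TPM limit, distance, signals, pseudocount, fold, centring and shift length.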

Additional observations from a re-analysis of the deposited data

Results flagged for a closer look

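DLK2, a Notch pathway regulator, moved in opposite directions in the lines. It had 12.8 TPM with l-lactate and 20.1 TPM in control in KYSE30, a log2 difference in (TPM + 1) of -0.61, and 3.19 TPM with l-lactate in TE-1, where the control did not list it, a difference of 2.07 with the missing value taken as 0. The difference between the lines was not tested, with 1 library of each kind. Its partner ABCC10 had 8.78, 8.75, 2.95 and 3.95 TPM in KYSE30 with l-lactate and control and in TE-1 with l-lactate and control. DLK2 was the only member past 1.5-fold in opposite ways, against 0.391% of all PACs.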

How the results depend on the processing

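With 1 library per line and treatment, no difference with l-lactate within a line can be told apart from a difference between cultures. Requiring 5 TPM in all 4 libraries left 390 members and a distance of 200 nt left 416. The share with a signal was 80.9% for AAUAAA or AUUAAA and 95.3% for any of the 12. The members past 1.5-fold with l-lactate became 11 in KYSE30 and 11 in TE-1 at 2-fold, 8 and 10 with a pseudocount of 5, both of 661. They became 18 and 9 of 587 among clusters listed in all 4 libraries. The background over all PACs of each setting was 2.83% and 3.17%, 2.63% and 3.19%, and 4.9% and 5.29% in the same order. The l-lactate term then called 4 of 661 members with a pseudocount of 5 (AP1G2, SRSF2, SNRPG and RBBP7). Among clusters listed in all 4 libraries it called 3 of 587 members (SRSF2, SNRPG and RBBP7). The background over all PACs fitted was higher, at 2.1% and 2.12%. For SRSF2 the limma adjusted p was 0.00888 and 0.00671. The line term called 151 of 661 members with a pseudocount of 5, against 28.2% of all PACs. Site shifts of any length numbered 26 of 554 in KYSE30 and 24 of 558 in TE-1, against 5.03% and 4.51% of all PACs compared. The other 36 of 51 alternatives stayed within 1.5 times of a count, or inside the interval or 0.1 of another value, among them 975 members at a distance of 1000 nt and 159 of 587 members called by the line term among clusters listed in all 4 libraries. The background of that line call was 27.3%. Centring on the median turned the split in TE-1 with l-lactate from 14 higher and 9 lower to 10 higher and 12 lower. Of 98 alternative values for 20 named line differences, 89 stayed on their side of the threshold and 9 did not, 8 of them with a pseudocount of 5 (GALK1, ADAM17, SSBP4, ISYNA1, ENSG00000283103, TMEM120B, RAI1 and SREBF1) and ISYNA1 also with 0.5. The cause was not tested. A planned count test on tags recovered from the TPM was not run. The term for line in the limma fit paired l-lactate with control within each line, and no replicates allowed a further block.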
